A study of Mus musculus with 22 samples.

Results

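The comparison described here sets histone H3 trimethylated at lysine 9 (H3K9me3) in the mouse C2 line against the C3 line, over every region on chromosomes 1 to 19 of the authors' table. It holds 60587 regions of the 204411 that the study's H3K9me3 and H3K27ac tables of these lines list. Both are induced pluripotent stem (iPS) cell lines made from C57BL/6 embryonic fibroblasts with 3 zinc finger artificial transcription factors in place of Oct4. C2 received ZFATF1, ZFATF2 and ZFATF3, C3 received ZFATF1, ZFATF2 and ZFATF4, and both also received Sox2, Klf4 and c-Myc, so the labelled difference is ZFATF3 against ZFATF4. Another line, OSKM, was made with Oct4, Sox2, Klf4 and c-Myc and serves below as a further reference. The cells carried an Oct4-MerCreMer and Tomato/GFP reporter, and the iPS cells of every line were treated with 4-hydroxytamoxifen to switch it on. Each line has 2 H3K9me3 libraries, and the labels do not say whether these came from separate cultures, so p-values measure only the spread between these samples. Each name stands for a single line, so what follows compares 2 lines, not the factors that made them. C2 and OSKM shared a pair of input libraries and C3 had its own, so an effect of the input and an effect of the line cannot be told apart.

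H3K9me3 marks constitutive heterochromatin. Methyltransferases such as Setdb1, brought to DNA by KRAB zinc finger proteins and Trim28, place it on endogenous retroviruses, on imprinted control regions and over clusters of zinc finger and receptor genes. In pluripotent cells it is best known for silencing retroviral repeats, and in reprogramming, fibroblast H3K9me3 domains are a known barrier. The acetylated mark H3K27ac, measured in the same lines, labels active promoters and enhancers.

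Whole reads per library inside the regions of chromosomes 1 to 19 numbered 4320772 and 3313996 in C2 and 6260607 and 3453829 in C3. H3K9me3 was tested in the 44870 regions (74.1%) with a mean of at least 10 reads over the 4 libraries. Of the 15717 others, 5812 held the table's lowest value, 1 read, in every library. In 655 tested regions the mean reached 10 reads in C2 alone, and in 1933 in C3 alone. Regions had a median width of 995 bp, and 3703 of them spanned 5 kb or more. The strongest region, chr2:98666241-98667336, alone held 8.5% and 6.49% of the C2 reads and 4.14% and 5.27% of the C3 reads. In H3K27ac, all 10 pluripotency markers examined, among them Pou5f1, Nanog and Esrrb, had regions summing to 17600 to 37600 normalized reads per library. The 10 embryonic fibroblast markers summed to 151 to 226, and Postn, Col1a2 and Twist2 had either no region or about 1 read in each library. The 9 primitive endoderm markers, such as Gata6 and Sox17, summed to 4040 and 2000 in C2 and to 7220 and 4070 in C3.

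The mark differed in few places. With limma on log2(normalized reads + 1) and Benjamini-Hochberg adjustment over all chromosomes, 22 regions had an adjusted p under 0.05, which is 0.049% of those tested. Of these, 21 (0.0468%) were higher in C2 and 1 (0.00223%) was higher in C3. By the unadjusted p, 1800 regions (4.01%) were higher in C2 and 1800 (4.01%) in C3. In bulk ChIP, fewer cells carrying the mark and less of it per cell cannot be told apart. The median absolute log2 difference was 0.31 between the lines, 0.41 between the C2 libraries and 0.33 between the C3 libraries. The first is a difference of means of 2 libraries and the others are differences of single libraries, so their sizes are not directly comparable. The count rests on few libraries. Without C2 replicate 2 there were 20 calls, 11 higher in C2 and 9 higher in C3, and only 4 of the 22 were among them. It was 62 without C3 replicate 2, 483 without C3 replicate 1 and 568 without C2 replicate 1. The authors' deposited table, at an FDR under 0.05, has 336 regions higher in C2 (0.555%) and 127 higher in C3 (0.21%), and 20 of the 22 regions are among them. edgeR and DESeq2 on the recovered reads each called all 22, but from the same 4 libraries, so this is no independent support.

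**Figure D1:**
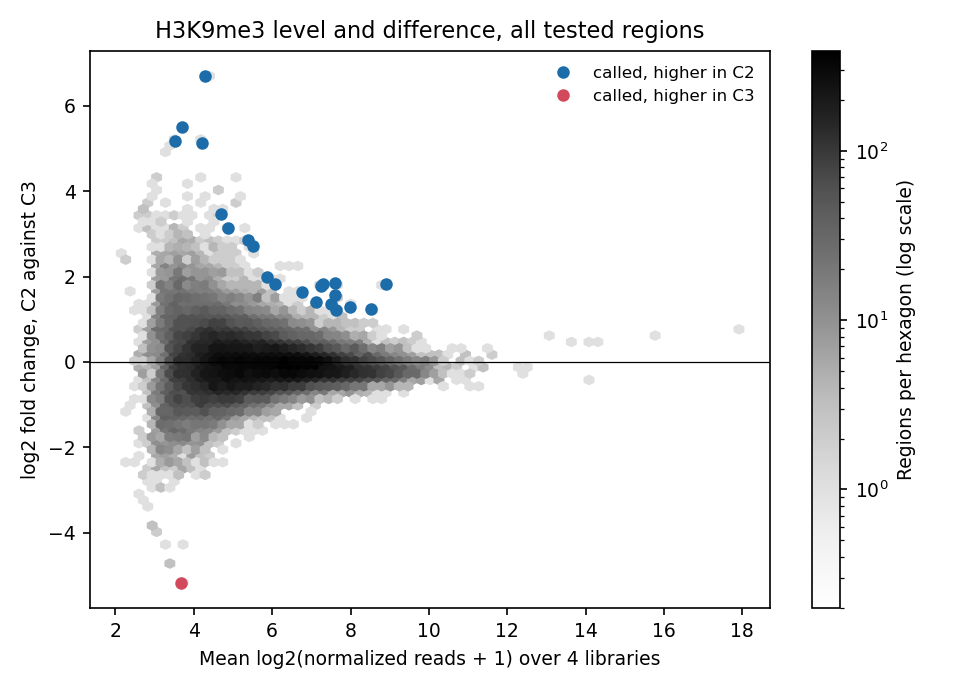
All 44870 tested regions by mean level over the 4 libraries (log2 of normalized reads + 1) and by log2 fold change of C2 against C3. Grey hexagons show the number of regions on a log scale, blue points the 21 regions called higher in C2 and the red point the 1 called higher in C3. Most regions lie close to 0, and the called regions lie along the upper edge at all but the highest levels.

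The sharpest difference lay in Smarcad1, which encodes a chromatin remodeller known for its part in keeping heterochromatin through replication. At chr6:65070146-65072222, inside the gene's extent, the normalized reads were 197 and 201 in C2 and 0.687 and 1.18 in C3, where both libraries were at 1 read. Since 1 read is the lowest value in every library and may be a floor set in processing, no bound on the fold is given. The log2 fold change was 6.70 ± 0.59 (SE), with a limma adjusted p of 5.4e-05. A second region, chr6:65072940-65073845, had 75.9 and 99.7 in C2 against 1 read in each C3 library (limma adjusted p = 0.00844). On the other side, chr6:65067438-65068466 had 81.8 and 144 in C2 and 0.687 and 4.74 in C3, a log2 fold change of 5.14 (limma adjusted p = 0.00645). Between and beyond these lay 2 more regions with the same order that missed the threshold, at log2 fold changes of 4.29 (adjusted p = 0.0567) and 4.16 (adjusted p = 0.321). Without C2 replicate 2, none of the 3 called regions kept its call (limma adjusted p of 0.102, 0.704 and 0.533), and chr6:65072940-65073845 also lost it without C2 replicate 1 (0.0926). In none of these 5 regions did a C3 library reach the lower C2 library.

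The stretch was low in OSKM too. In RPM, here whole reads scaled to the library's tags kept after duplicate removal, the strongest Smarcad1 region had 4.25 and 5.57 in C2, 0.892 and 0.573 in OSKM and 0.0225 and 0.0289 in C3. The region just beyond it was at 1 read in both OSKM libraries. Neighbouring regions outside the gene behaved differently: at chr6:65017272-65020347, 22.2 kb from Smarcad1, the mark was called too, but with only 311 and 503 normalized reads in C2 against 147 and 177 in C3 (log2 fold change 1.29, adjusted p = 0.0441), and OSKM had 13.6 and 16.8 RPM. At chr6:65031138-65032336 C2 had 75.9 and 132 and C3 had 61.9 and 73.4 (log2 fold change 0.56, adjusted p = 0.668). The 4 called regions, spaced less than 50 kb apart over 56574 bp, formed the only run of more than 1 called region. No H3K27ac region overlapped the 5 regions inside the gene. The nearest one upstream of them in coordinate, with its centre 10.7 kb from that of the strongest region, had 880 and 554 H3K27ac reads in C2 and 1536 and 1154 in C3 (adjusted p = 0.343).

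**Figure D2:**
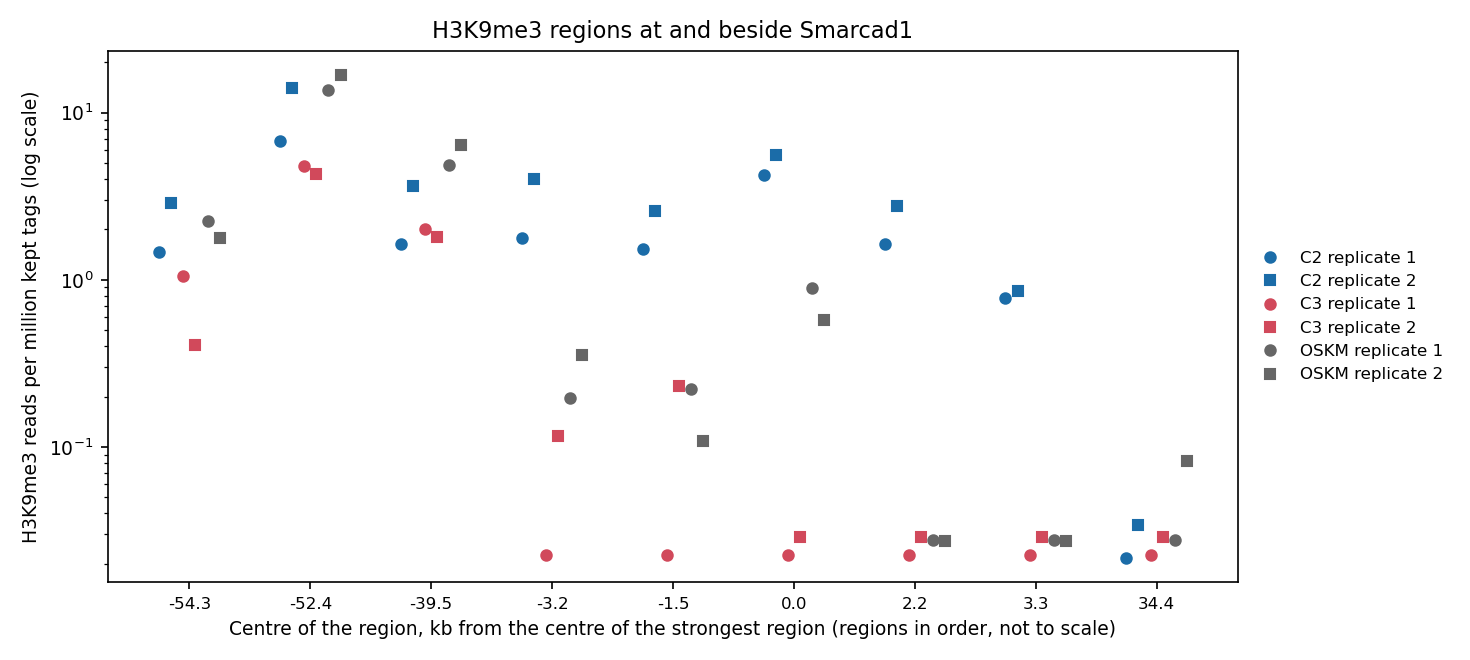
H3K9me3 RPM (log scale) in each library of C2, C3 and OSKM, for the 9 regions within 60 kb of the strongest Smarcad1 region, in order along chromosome 6 with the distance of each centre in kb. From -3.2 to 3.3 kb the C2 libraries stand above all others, while the regions at -54.3 to -39.5 kb carry the mark in all 3 lines.

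A second group of called regions, all higher in C2, sat on chromatin that also carried H3K27ac. The promoter window of the noncoding RNA gene Gm34545 lies in one of them, and the window of Gm40237 overlaps another that had no H3K27ac region. Both are shown because these are the only genes whose promoter windows, 250 bases before to 50 after a RefSeq start, overlap a called region. They are printed with the windows of 3 imprinted genes described further on, whose starts lie in H3K9me3 regions. CpG dinucleotides are in capitals, all windows are from RefSeq on GRCm38.p6 (mm10), and each reads 5′ to 3′ on the gene's strand.
Gm34545, chr10:120174231-120174530, plus strand: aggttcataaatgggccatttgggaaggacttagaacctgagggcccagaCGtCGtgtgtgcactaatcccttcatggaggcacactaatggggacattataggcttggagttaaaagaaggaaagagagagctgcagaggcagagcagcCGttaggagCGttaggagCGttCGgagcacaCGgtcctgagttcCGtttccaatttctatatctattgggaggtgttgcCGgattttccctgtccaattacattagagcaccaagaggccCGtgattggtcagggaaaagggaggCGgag
Gm40237, chr4:118547156-118547455, plus strand: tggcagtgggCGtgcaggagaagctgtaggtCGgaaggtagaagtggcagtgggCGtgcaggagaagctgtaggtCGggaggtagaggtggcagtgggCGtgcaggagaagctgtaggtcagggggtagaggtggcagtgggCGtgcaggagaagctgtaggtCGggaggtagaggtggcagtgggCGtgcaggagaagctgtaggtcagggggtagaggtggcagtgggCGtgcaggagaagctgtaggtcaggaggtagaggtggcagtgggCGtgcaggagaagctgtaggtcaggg
Nnat, chr2:157559828-157560127, plus strand: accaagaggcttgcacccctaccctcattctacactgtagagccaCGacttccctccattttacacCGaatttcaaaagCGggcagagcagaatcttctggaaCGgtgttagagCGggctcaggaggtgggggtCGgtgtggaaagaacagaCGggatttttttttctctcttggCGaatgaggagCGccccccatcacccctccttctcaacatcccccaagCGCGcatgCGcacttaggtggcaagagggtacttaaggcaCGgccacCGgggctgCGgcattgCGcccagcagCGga
Nap1l5, chr6:58907077-58907376, minus strand: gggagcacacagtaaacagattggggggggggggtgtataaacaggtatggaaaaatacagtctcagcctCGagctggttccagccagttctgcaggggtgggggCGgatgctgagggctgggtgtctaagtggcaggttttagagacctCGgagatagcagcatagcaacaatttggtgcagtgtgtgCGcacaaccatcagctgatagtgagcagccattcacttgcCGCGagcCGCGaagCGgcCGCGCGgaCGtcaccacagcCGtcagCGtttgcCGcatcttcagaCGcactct
Kcnq1ot1, chr7:143296498-143296797, minus strand: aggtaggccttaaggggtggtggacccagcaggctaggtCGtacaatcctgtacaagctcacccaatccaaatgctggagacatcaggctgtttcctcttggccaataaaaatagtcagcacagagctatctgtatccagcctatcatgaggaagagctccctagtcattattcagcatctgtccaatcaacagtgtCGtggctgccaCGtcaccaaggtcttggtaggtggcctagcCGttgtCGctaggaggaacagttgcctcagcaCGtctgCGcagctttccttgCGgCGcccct
The windows hold 11 CG in Gm34545, 10 in Gm40237, 17 in Nnat, 17 in Nap1l5 and 9 in Kcnq1ot1. Of all 32851 promoter windows, 43.5% hold at least 10 CG and 31.4% at least 17. The Gm40237 window is a tandem array: the 24-base unit tggcagtgggCGtgcaggagaagc occurs 7 times in it, every 44 bases. On either strand, only 2 windows of all genes hold that unit (0.00609%), both of Gm40237, and reads from such an array may map to any of its copies.

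The region over the Gm34545 window, chr10:120173177-120175066, also overlaps Irak3, which encodes an inhibitor of Toll-like receptor signalling. It had 67.9 and 105 normalized H3K9me3 reads in C2 and 5.5 and 8.29 in C3. The groups stood far apart, with a log2 fold change of 3.46 ± 0.51 (SE) and a limma adjusted p of 0.0122. OSKM had more than either line, 10.9 and 9.31 RPM against 1.47 and 2.9 in C2 and 0.18 and 0.203 in C3. That chromatin was also strongly acetylated, with 1375 and 1044 normalized H3K27ac reads in C2 and 3423 and 1941 in C3. Over Gm40237, the H3K9me3 values were 193 and 187 in C2 and 75.6 and 48.6 in C3 (log2 fold change 1.63, adjusted p = 0.0277).

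Platr3 belongs to a set of noncoding RNAs named for their link to pluripotency. Its region, chr2:135648844-135650723, had 77.8 and 170 H3K9me3 reads in C2 and 11 and 24.9 in C3 (log2 fold change 2.72 ± 0.46, limma adjusted p = 0.0351). H3K27ac there was 1352 and 888 in C2 and 2459 and 1697 in C3. At Etl4, a gene named from an enhancer trap, chr2:20491985-20494545 had 229 and 379 H3K9me3 reads in C2 and 106 and 64 in C3 (log2 fold change 1.83, adjusted p = 0.0187). In both genes the lower C2 library was above the higher C3 library for H3K9me3, and the order was reversed for H3K27ac. The H3K27ac difference was not called at either (limma adjusted p of 0.4 at Platr3 and 0.313 at Etl4). H3K27ac was lower in C2 at 86.7% of all tested H3K9me3 regions with an H3K27ac region.

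Pfkp, the platelet form of the glycolytic enzyme phosphofructokinase, had 78.9 and 156 H3K9me3 reads in C2 and 10.3 and 20.1 in C3 at chr13:6641350-6642345 (log2 fold change 2.86, adjusted p = 0.0196). Elfn1, a synaptic membrane protein gene, had 48.9 and 154 in C2 and 9.62 and 8.29 in C3 at chr5:139908851-139910040 (log2 fold change 3.15, adjusted p = 0.0404). At both genes the second C2 library was well above the first, and both C3 libraries were far below it. H3K27ac was 350 and 208 in C2 and 514 and 508 in C3 at Pfkp, and 77.8 to 89.5 in the 4 libraries at Elfn1. Ddit3, the stress-response transcription factor also called CHOP, and its neighbour Mars1, a methionyl-tRNA synthetase, shared chr10:127293323-127296901, with 455 and 687 in C2 and 276 and 204 in C3 (log2 fold change 1.23, adjusted p = 0.0403), where H3K27ac was low at 23 to 58.2 reads. In a desert of coding genes, chr17:82440260-82441536 had 51.9 and 89.8 in C2 while both C3 libraries were at 1 read (adjusted p = 0.0289). The nearest coding gene, Slc8a1, lies 702 kb away, and OSKM carried the mark there at 2.79 and 1.91 RPM.

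The 3 widest called regions carried no H3K27ac region and lay near vomeronasal receptor genes. On chromosome 7, chr7:12010272-12017826 had 875 and 922 normalized reads in C2 and 265 and 238 in C3, with no gene within 2 kb and the pheromone receptor gene Vmn1r77 as the nearest coding gene, 23.5 kb away. The difference, a log2 fold change of 1.83 ± 0.15 (SE), had the smallest adjusted p of all regions on chromosomes 1 to 19 (4.1e-05, limma). Vmn1r238 and Vmn1r2, both of the V1R family of pheromone receptors, lay within 2 kb of 2 further wide regions. Beside Vmn1r238, chr18:3113169-3120771 had 426 and 315 in C2 and 99 and 103 in C3 (log2 fold change 1.85, adjusted p = 0.0011). Beside Vmn1r2, chr4:3174612-3182149 had 300 and 282 in C2 and 116 and 110 in C3 (log2 fold change 1.36, adjusted p = 0.0122). These 3 regions, 7538 to 7603 bp wide, were also the only called regions that kept an adjusted p under 0.05 when each of the 4 libraries was left out in turn. Reads from near-identical copies in such receptor clusters may be assigned to any of them.

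Of the remaining called regions, chr17:6738291-6740859 lies at Ezr, which ties the membrane to actin, and near Sytl3, a vesicle trafficking gene, and had 317 and 350 in C2 and 150 and 82.9 in C3 (log2 fold change 1.57). Beside Nhlrc1, the ubiquitin ligase malin, chr13:47009402-47011962 had 304 and 299 in C2 and 146 and 116 in C3. At the noncoding gene Gm41564, chr17:31835212-31836492 had 113 and 140 in C2 and 44 and 27.2 in C3, on the most acetylated chromatin of all called regions (H3K27ac 4479 and 2974 in C2, 5651 and 4264 in C3).

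With no gene within 2 kb, 3 further regions also carried H3K27ac. These were chr7:3571903-3573754 with 97.8 and 137 H3K9me3 reads in C2 and 35.1 and 22.5 in C3 (adjusted p = 0.0404), and chr3:103199638-103203150 with 227 and 345 in C2 and 84.5 and 75.8 in C3 (adjusted p = 0.00592). The last, chr6:100289719-100291690, lies 2361 bp from Rybp, a Polycomb component, with 183 and 274 in C2 and 77.7 and 91.2 in C3 (adjusted p = 0.0475). Just outside the threshold stood Gm35864, at a log2 fold change of 2.25 (adjusted p = 0.0515), and Lrrc8c, a subunit of the volume-regulated anion channel, at 5.06 (adjusted p = 0.0552). In all, 28 regions higher in C2 and 5 higher in C3 had an adjusted p from 0.05 to under 0.1. Of the 21 regions higher in C2, the lowest library was C3 replicate 2 in 11 and C3 replicate 1 in 10, and the highest was C2 replicate 2 in 17.

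**Figure D3:**
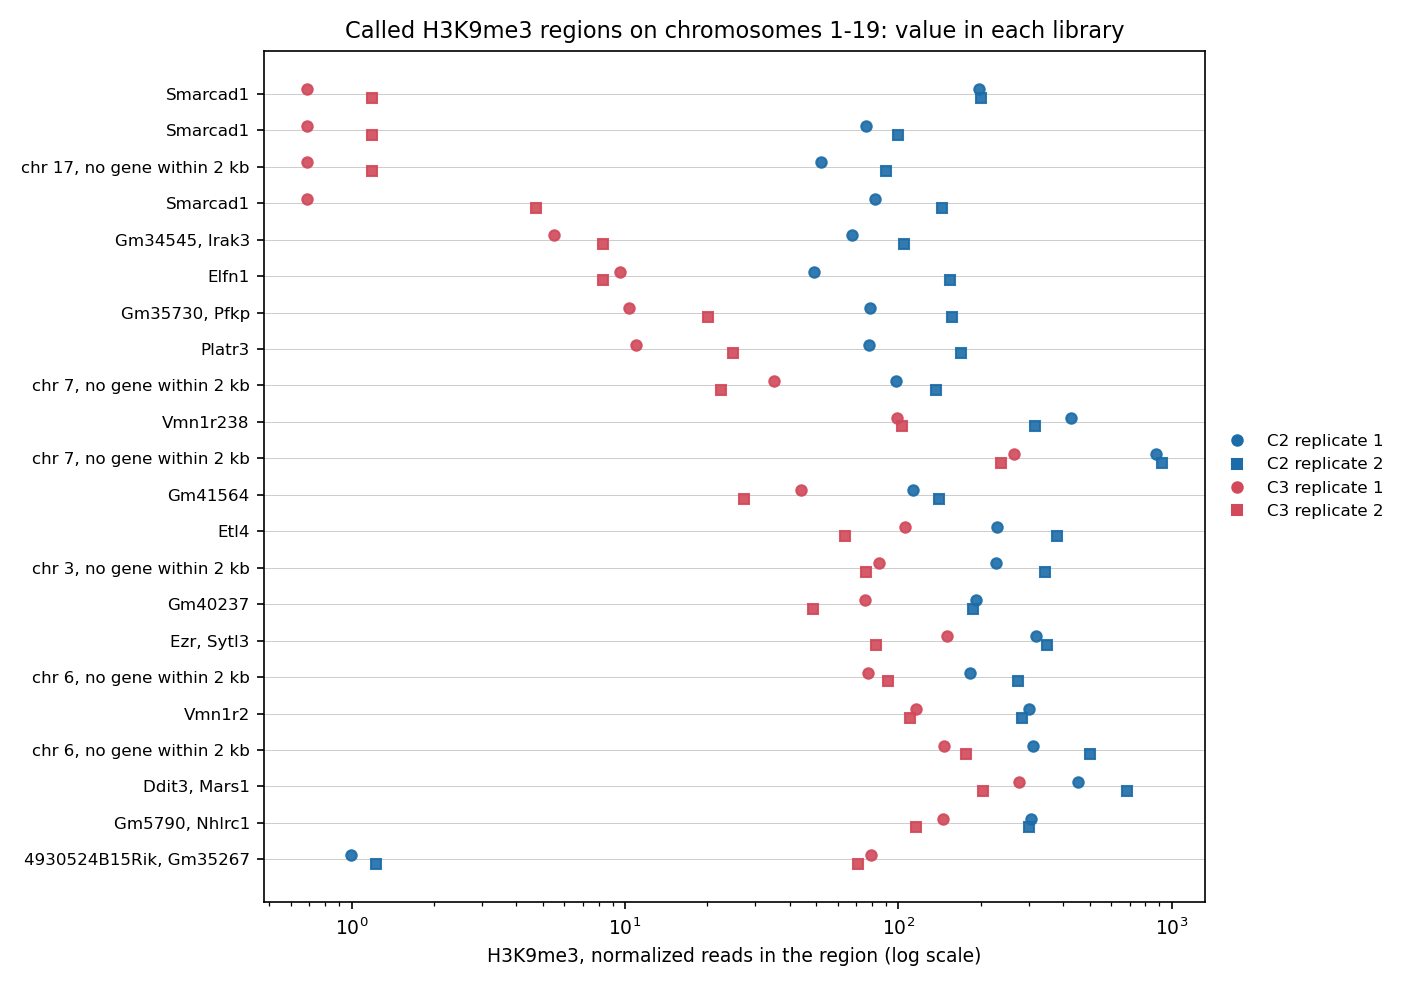
Normalized H3K9me3 reads (log axis) in the 4 libraries for the 22 called regions, ordered by log2 fold change and named by the genes within 2 kb. Circles are replicate 1 and squares replicate 2. C2 points lie to the right of both C3 points in 21 rows, and in the lowest row, 4930524B15Rik, C2 is at 1 read.

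C3 was higher in 1 called region, chr11:31977678-31978503, inside the uncharacterised gene 4930524B15Rik. Its normalized reads were 79 and 71.1 in C3, and both C2 libraries were at 1 read. The log2 fold change was -5.17 ± 0.79 (SE), with a limma adjusted p of 0.0157. OSKM, with 1 and 6 whole reads, was also near the floor. The region kept its call in 2 of the 4 fits that left out a library.

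Regions held by a single line were gathered in a further count, with a limit chosen after the values were seen: at least 20 reads in both libraries of one line and 1 read in both of the other. C2 had 8 such regions and C3 had 10. A peak called in at least 1 library of the line itself overlapped 7 of the 8 and 8 of the 10. Of the C2 regions, 3 were in Smarcad1 and 1 each in Lrrc8c, Frs3 (an FGF receptor substrate), Trim2 (a ubiquitin ligase) and Mapk4 (an atypical MAP kinase). Lrrc8c had 36.9 and 107 normalized reads in C2, and Frs3 had 69.9 and 43.1. The C3 regions included Gm11963 with 47.4 and 56.8 reads in C3 (adjusted p = 0.0757) and a region in Wnk1, a kinase of ion transport, with 24.1 and 36.7. OSKM had at least 20 reads in both libraries in 5 of the 8 C2 regions and in 5 of the 10 C3 regions, and was at 1 read in both libraries in 3 of each.

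Across all tested regions, the H3K9me3 difference moved with H3K27ac. Regions were grouped by the mean reads of the strongest H3K27ac region that overlapped them, a measurement from other libraries. In all overlaps reported here, only H3K27ac regions with a mean of at least 10 reads over the 4 libraries counted. A region given as having none may overlap a weaker one. The 40264 regions with none had a median H3K9me3 log2 fold change of -0.10. It was 0.21 in 1840 regions with 10 to under 50 H3K27ac reads, 0.36 in 1406 with 50 to under 200, 0.51 in 1119 with 200 to under 1000 and 0.87 in 241 with 1000 or more. In that last group, 51.5% had an unadjusted p under 0.05 in favour of C2 and 0.83% in favour of C3, against 2.14% and 4.34% in regions with no H3K27ac region. Both C2 libraries were above both C3 libraries in 61.4% of the 241, against 15.5% of all tested regions. The order of the groups was the same at each H3K9me3 level: from 10 to under 50 reads, regions with and without H3K27ac had medians of 0.58 and -0.07, from 50 to under 200 reads 0.31 and -0.09, and from 200 reads 0.13 and -0.19.

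Each library contributed unequally. In the group with 1000 or more H3K27ac reads, the median deviation from the region's mean was 0.12 and 0.76 in C2 and -0.20 and -0.51 in C3 (log2), so the second replicate of each line lay farther out. Without any 1 library the median of that group ranged from 0.54 (without C2 replicate 2) to 1.17 (without C2 replicate 1), and with libraries centred on their medians, quantile normalization or edgeR it was 0.88, 0.90 and 0.91. In RPM, the median H3K9me3 in this group was 1.4 and 2.87 in C2, 3.68 and 3.69 in OSKM and 1.55 and 0.926 in C3. In regions with no H3K27ac region it was 0.929 and 1.2 in C2, 1.67 and 1.91 in OSKM and 1.55 and 1.04 in C3. The level thus rose with acetylation in C2 and OSKM, which shared their inputs, and was nearly flat in C3, so line and input cannot be told apart here either. Among regions higher in C2, 12 of 21 (57.1%) overlapped an H3K27ac region, against 10.3% of all tested regions, and 9 of 21 (42.9%) one with 200 or more reads, against 3.03%.

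H3K27ac itself was lower in C2 at 11 of those 12, but also at 86.7% of all tested H3K9me3 regions with an H3K27ac region, where its median log2 fold change was -0.69. At the 12 it was -0.91. On chromosomes 1 to 19, 11 H3K27ac regions were called higher in C2 (0.0129%) and 10 higher in C3 (0.0117%), none of them at an H3K9me3 region called higher in C2. The H3K27ac calls numbered 235 with a pseudocount of 8, 11627 with the replicate number as a block and 272 to 5339 when 1 library was left out.

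**Figure D4:**
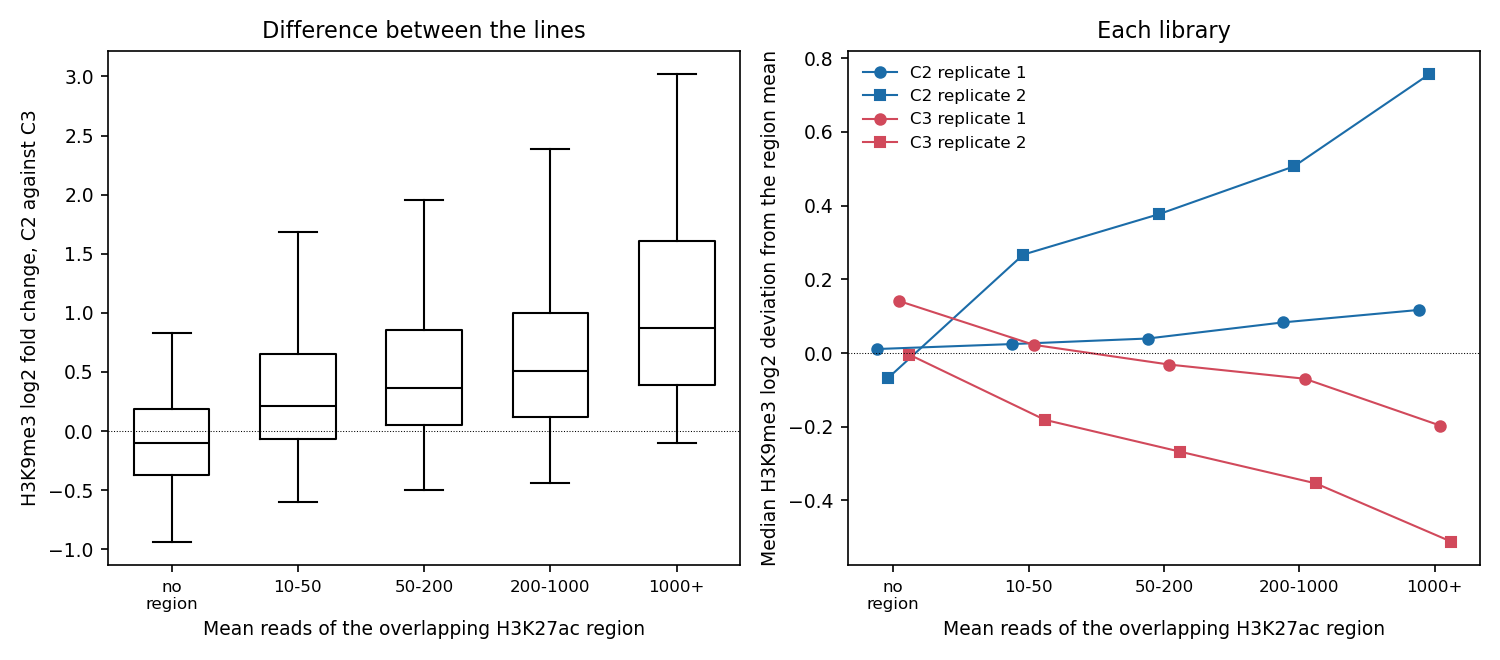
Left, H3K9me3 log2 fold change of C2 against C3 for tested regions grouped by the mean reads of the overlapping H3K27ac region (box, quartiles and median; whiskers, 5th to 95th percentile). Right, the median log2 deviation of each library from the region's mean in the same groups. Medians go from -0.10 with no H3K27ac region to 0.87 with 1000 or more reads, and the second replicates diverge most.

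Wide regions leaned the other way. In 3603 tested regions of 5 kb or more the median log2 fold change was -0.21, and both C3 libraries were above both C2 libraries in 45.8%, against 23.0% of all tested regions. Regions with 200 to under 1000 H3K9me3 reads had a median of -0.15, and those under 50 reads -0.03. The median of all regions was -0.06 in the authors' scaling. Quantile normalization gave -0.12 for the wide regions and -0.04 for those with 200 to under 1000 reads, with -0.02 for all regions. edgeR gave -0.14 and -0.09, with 0.00 for all regions. Set against all regions, the lean was thus smaller with quantile normalization and about the same with edgeR. The strongest region of all, only 1096 bp wide, ran the other way, at a log2 fold change of 0.67 (adjusted p = 0.208). Whether its many reads come from repeat copies elsewhere was not tested. By chromosome, medians went from -0.16 on chromosome 8 to 0.03 on chromosome 16.

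The gene lists were examined through the strongest region within 2 kb of each gene. All tested regions with a gene within 2 kb had a median log2 fold change of 0.00. At an unadjusted p under 0.05, 6.14% of them were in favour of C2 and 3.29% in favour of C3. Shares of all tested regions given below are thus not a like background for the lists. Among genes of H3K9 methylation and KRAB silencing, 12 of 35 had a tested region, 1 (Smarcad1) was called and the median was 0.28, against -0.06 over all tested regions. Kdm3b, a demethylase that opposes the mark, had 13 and 38.2 reads in C2 and 1 read in each C3 library (adjusted p = 0.516). Resf1, a partner of Setdb1 in retroviral silencing, had 31.9 and 81.2 in C2 and 22 and 27.2 in C3 (adjusted p = 0.614). Setdb1 itself and Trim28 are on the list with no tested region of their own.

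Zinc finger genes of the Zfp family, whose coding clusters are textbook targets of the mark, had 150 tested regions and a median log2 fold change of 0.15. None was called, 15 had an unadjusted p under 0.05 in favour of C2 and 1 in favour of C3, where 4.01% of all tested regions fell on each side. Both C2 libraries lay above both C3 libraries in 46 of the 150 and the reverse held in 23, against 15.5% and 23.0% of all tested regions. In tested regions with a gene within 2 kb these shares were 19.3% and 19.2%. At Zfp462, a heterochromatin-linked factor, the reads were 642 and 661 in C2 and 443 and 351 in C3 (log2 fold change 0.72, adjusted p = 0.178). Zfp607b had 123 and 209 in C2 and 44 and 87.6 in C3 (log2 fold change 1.35, adjusted p = 0.278). The region shared by Zfp12 and Zfp316 had 757 and 561 in C2 and 858 and 842 in C3, and 1 whole read in each OSKM library. Of the 150 regions, 21 overlapped an H3K27ac region.

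Receptor families had medians below that of all tested regions. Olfactory receptor genes had 128 tested regions with a median of -0.11, none called, 1 in favour of C2 and 8 in favour of C3 at an unadjusted p under 0.05. Vomeronasal receptor genes had 77 with a median of -0.16, and Vmn1r238 and Vmn1r2 were the 2 called, both higher in C2 (0.0468% of all tested regions). At an unadjusted p under 0.05, 4 were in favour of C2 and 5 in favour of C3. Cytochrome P450 genes, enzymes of drug and steroid metabolism, had 66 with a median of -0.08 and none called.

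Imprinted genes, where H3K9me3 sits on the DNA-methylated parental allele, had 31 tested regions, a median of 0.02 and no call, with 6 in favour of C2 and 3 in favour of C3 at an unadjusted p under 0.05 (4.01% of all tested regions on each side). In 9 regions both C2 libraries were above both C3 libraries, and in 5 the reverse, against 15.5% and 23.0% of all tested regions. In tested regions with a gene within 2 kb these shares were 19.3% and 19.2%. The region over the Nnat window printed above, which also covers Blcap, had 861 and 816 in C2 and 577 and 463 in C3 (log2 fold change 0.70 ± 0.15, limma adjusted p = 0.169). In the region over the Nap1l5 window, shared with Herc3, the reads were 638 and 507 in C2 and 355 and 297 in C3 (log2 fold change 0.80, adjusted p = 0.154). The Kcnq1ot1 window, the start of the antisense RNA of that cluster, lay in a region with 224 and 73.8 in C2 and 39.9 and 1.18 in C3 (log2 fold change 3.78, adjusted p = 0.268). A much wider region of Kcnq1 and Kcnq1ot1, chr7:143222768-143240195, ran the other way, with 1191 and 1096 in C2 and 1661 and 1694 in C3 (log2 fold change -0.55, adjusted p = 0.192).

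Other imprinted regions with separated groups were at H19, the maternally expressed noncoding RNA beside Igf2, with 461 and 363 in C2 and 262 and 238 in C3 (adjusted p = 0.293), and at Grb10, a growth factor receptor adaptor, with 104 and 105 in C2 and 46.7 and 36.7 in C3 (adjusted p = 0.206). Snurf lay on the other side, with 87.8 and 50.4 in C2 and 129 and 118 in C3 (log2 fold change -0.88, adjusted p = 0.493). Between the lines Igf2r and its antisense gene Airn did not separate, at 264 and 192 in C2 and 252 and 200.2 in C3, while OSKM had 10 and 1 whole reads there. Commd1 and Zrsr1, with 1 whole read in each OSKM library, had 93.8 and 88.6 in C2 and 87.3 and 139 in C3.

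**Figure D5:**
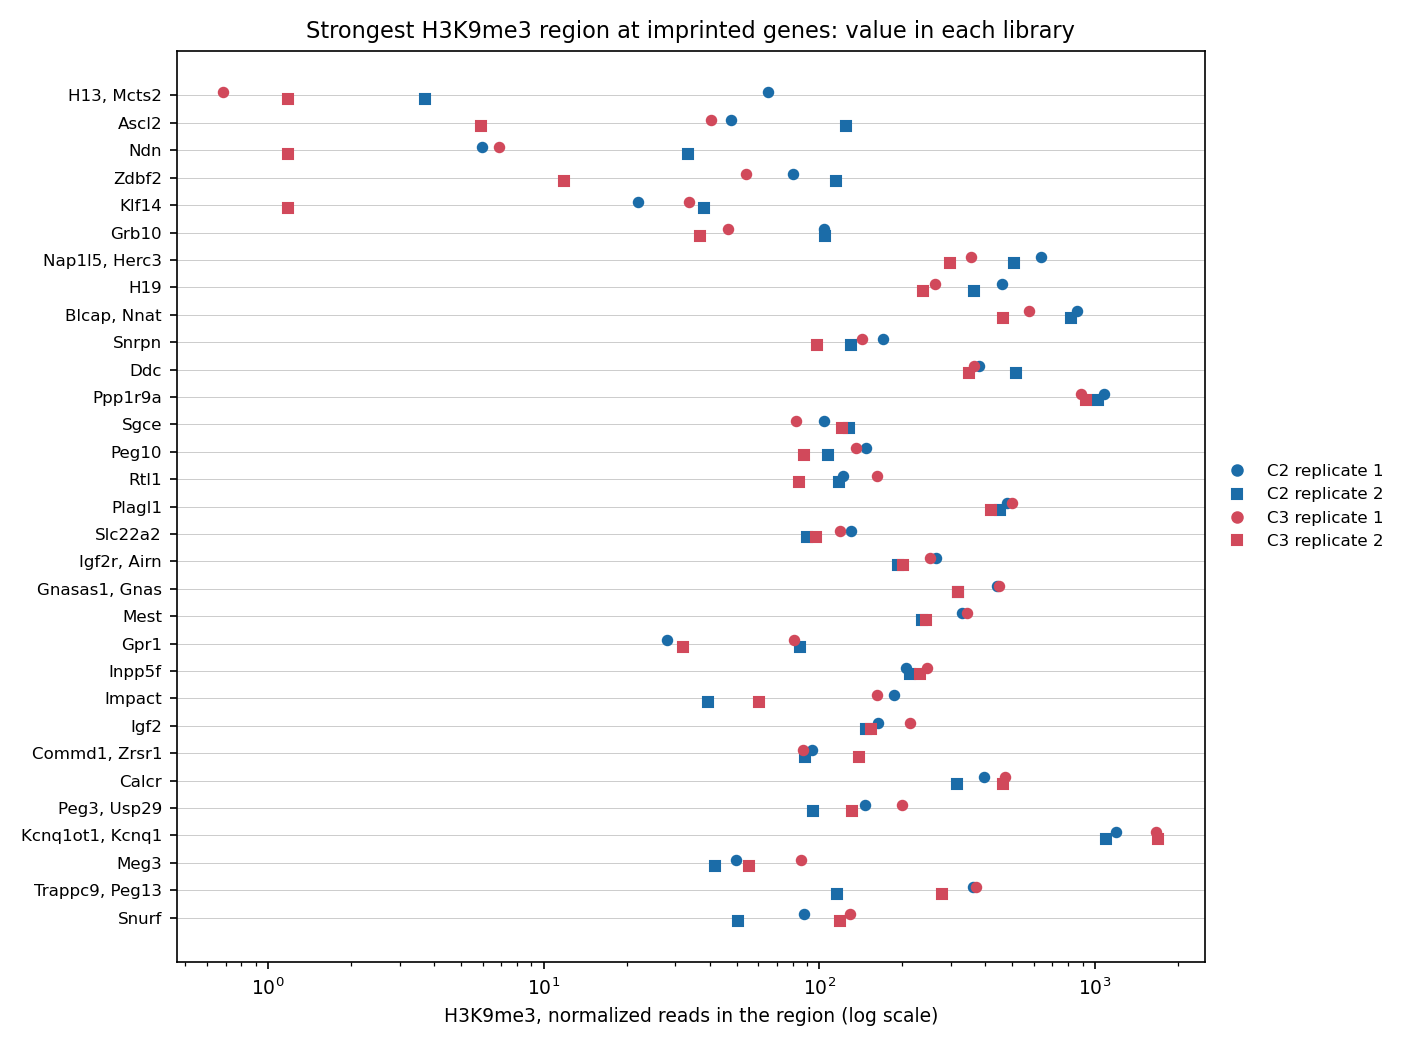
Normalized H3K9me3 reads (log axis) in each of the 4 libraries for the strongest region at each imprinted gene, 31 regions ordered by log2 fold change, genes sharing a region named together. C2 and C3 points overlap in most rows, as at Igf2r and Airn, and stand apart at Nnat, Nap1l5 and H19 (C2 to the right) and at Kcnq1 (C3 to the right), none with an adjusted p under 0.05.

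Of the reprogramming factors, Myc and Pou5f1 (Oct4) had tested regions. The stronger of 2 in Myc had 199 and 182 in C2 and 164 and 46.2 in C3 (log2 fold change 1.11 ± 0.41, limma adjusted p = 0.517), so the gap came mostly from C3 replicate 2. The strongest of 3 in Pou5f1 had 288 and 252 in C2 and 277 and 174 in C3 (adjusted p = 0.76). Sox2 and Klf4 had no region within 2 kb. Reads from transduced c-Myc and from Myc itself cannot be told apart in these tables.

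OSKM was read at the same regions. Of the 21 higher in C2, 17 (81%) overlapped an OSKM peak in both libraries, near the 80% of tested regions that were not called. In RPM, both OSKM libraries exceeded both C2 libraries in 12 of 21 (57.1%), against 69.8% of all tested regions. Both were below both C2 libraries in 3 (14.3%), all in Smarcad1, against 2.8%, and both shares are set in part by the choice of regions with a high C2 value. The HA tag was profiled in other cells, transduced fibroblasts with the C2 factors or an empty vector. An HA peak of C2 overlapped none of the 21 in either library, against 4% and 8.74% of regions not called. With the empty vector, 1 of 21 overlapped a peak in replicate 1 and none in replicate 2, against 3.25% and 5.85%.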

How the data were processed

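H3K9me3 was profiled by ChIP-seq in 2 libraries each of the C2, C3 and OSKM lines. The submitters' processing notes name DiffBind 1.16.2, SAMtools 1.3, Bowtie2 2.2.5, CASAVA 1.8.2 and the mm10 build. MACS 2.1.0.20150731 (for HA, 2.1.1.20160309) called the peaks of every library with an input as control, at a q-value of 0.01, per the file headers. The deposited peak files hold the pileup (a signal), −log10 of the p-value and of the q-value, and fold enrichment (a ratio). In the region tables, as deposited, the authors' normalized reads (a signal) stand beside their own log2 fold change, FDR and p-value. Whether control reads were subtracted is not given in the sources used here and was not tested. Of the 60587 regions compared, 5812 were at 1 read in all 4 libraries of C2 and C3. The region of 6368 bp at Zfp12 and Zfp316 was at 1 read in both OSKM libraries. If control reads were subtracted, whole reads and RPM are not observed counts. Each C3 value would then depend also on the separate input of C3.

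Each value divided by the lowest of its library was a whole number for 100% of values (tolerance 0.001), and these whole reads were used for filters and count models. One read was thus the smallest value in every library. Regions with a mean of at least 10 reads on any chromosome entered limma 3.58.1 (R 4.3.3), with a trended variance, on log2(normalized reads + 1), which understates changes of low regions. Regions on chromosomes 1 to 19 were then counted. Alternatives used edgeR 4.0.16 and DESeq2 1.42.0 on the whole reads. Scripts for the fit were tested on simulated data.

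Genes were joined to regions within 2000 bp of their RefSeq extents on GRCm38.p6, and exons and introns were not used. Named are the called regions with the largest changes with and without a gene, those with the highest mean, runs of called regions within 50 kb, called list members and the 4 reprogramming factors. Other named regions, the H3K27ac groups and the regions held by 1 line were chosen after their values were seen. The comparison and the lists were chosen with earlier results of these data known. A group of 2 libraries limits every test. Where a line is at 1 read, the fold change depends on whether that is a count or a floor set in processing. Tags kept after duplicate removal ranged from 29264090 to 46304808 per H3K9me3 library of C2 and C3.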

Additional observations from a re-analysis of the deposited data

How the results depend on the processing

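The number of called regions varied with the method, while each of the 22 kept its direction under every alternative that tested it. Counts higher in C2, higher in C3 and in all were 21, 1 and 22 in the reported fit. They were 57, 7 and 64 with a pseudocount of 8. Without the filter on low reads they were 250, 43 and 293, and with a mean of at least 50 reads 48, 3 and 51. Median-centred libraries gave 44, 6 and 50 and quantile normalization 45, 5 and 50. edgeR with TMM gave 63, 9 and 72, and DESeq2 99, 10 and 109. The authors' deposited FDR gave 336, 127 and 463. Leaving out 1 library at a time gave 11 to 479, 0 to 345 and 20 to 568. Leaving chromosome 8 out of the count could change nothing, because no called region lies on it.

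With the replicate number as a block the counts were 235, 41 and 276. The labels give no shared batch for a number, and replicate 1 deviations of C2 and C3 correlated at 0.1, so the samples share only a number.

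All 22 regions were called by edgeR, DESeq2, both other scalings, a pseudocount of 8, no filter and the block, all fitted to the same 4 libraries. Without C2 replicate 2, 4 kept an adjusted p under 0.05, without C3 replicate 2, 16, without C2 replicate 1, 20, and without C3 replicate 1, 21. A mean of 50 reads removed 5 from testing. Members of the gene lists called numbered 3 as reported, 1 when a region had to overlap the gene and 5 with all regions within 2000 bp.

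H3K27ac calls on chromosomes 1 to 19 numbered 21, against 235 with a pseudocount of 8, 11627 with the replicate block and 272 to 5339 without 1 library. The share of regions higher in C2 with OSKM peaks in both libraries was 81% also for peaks with a -log10 q of at least 5 and when a peak had to cover at least 50% of the region. A fit without 1 library leaves a line with 1 sample, assumed to vary like the other line. Few large changes passed the test: 10 of 561 regions with an absolute log2 fold change of at least 2 were called.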

Other observations

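The same table holds 2845 tested regions on chromosomes X and Y, outside the comparison above. There 36 regions were called, 34 on Y and 2 on X, and all were lower in C2. At Ddx3y, a Y-linked RNA helicase gene, both C2 libraries were at 1 read and C3 had 545 and 611 normalized reads. The region shared by Mid1 and G530011O06Rik on X had 694 and 843 in C3 and 1 read in each C2 library. The other called X region is at Mid1 too, and a Y region at Mid1-ps1 was also called. Whether reads in the 2 X regions come from sequence that X and Y share was not tested. Reads on Y made up 0.105% and 0.116% of all region reads in C2, 0.43% and 0.454% in C3 and 0.453% and 0.432% in OSKM. Less Y DNA in the C2 cells and less of the mark on Y cannot be told apart from these reads.

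Regions were also grouped by the CG content of the promoter window they overlap, with no test between the groups. In 29 tested regions that overlap a window with 20 or more CG, none was called and the median H3K9me3 log2 fold change was 0.25, against -0.07 in the 44413 regions over no window. Without C3 replicate 2 these medians were 0.06 and -0.16. The germline gene Fkbp6, a cochaperone of the piRNA pathway, had 50.9 and 56.6 reads in C2 and 15.1 and 3.55 in C3 (log2 fold change 2.67, limma adjusted p = 0.243). The germline list had 17 tested regions with a median of 0.04. Duxf3, of the Dux array that drives the 2-cell-like state, had 250.5 and 228 in C2 and 164 and 120 in C3 (log2 fold change 0.77, adjusted p = 0.366), in a repeat whose copies share reads. The 2-cell-like list as a whole did not follow Duxf3: its 6 tested regions had a median of -0.08. At an unadjusted p under 0.05, 1 of them was in favour of C2 and 1 in favour of C3, against 4.01% of all tested regions on each side.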
